A study of Mus musculus with 4 samples.

Results

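The troponin and tropomyosin genes of the pressure-loaded mouse heart were taken as every probe set of the array whose annotated symbol was Tnnt2, Tnnt1, Tnni3, Tnni1, Tnnc1, Tpm1, Tpm2, Tpm3 or Tpm4. These 9 genes had 19 probe sets of their own, out of 20380 probe sets with 1 annotated gene for 12393 genes. The series asked what the cytokine IL-18 contributes to gene expression in hypertrophy under pressure overload, and measured heart RNA on 4 arrays, 1 for each combination of genotype and surgery. Wild-type mice and mice lacking Il18 (IL-18 null, or null) had either transaortic constriction, a band that narrows the aorta, or a sham operation. The RNA of an array was a pool: 5 mice made up the null sham pool, 6 the null banded pool, and the series design gives 5 to 6 per group. The null banded pool had 1 week of constriction and a C57BL/6 background per its labels. The labels place both null pools in the left ventricle, call the wild-type sham tissue cardiac muscle and name no tissue for wild-type banded, so the part of the heart sampled may not have been the same. The constriction time of the wild-type banded pool, the strain of the other 3 pools and the ages of all mice are not in the sources used here. With 1 pooled array a group, a difference between arrays has no replicate check and no p-value.

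Troponin and tropomyosin sit on the actin thin filament of the sarcomere. Troponin C binds calcium, troponin I holds the filament in its inhibited state at rest, and troponin T anchors the complex to tropomyosin, a coiled coil that covers or exposes the myosin-binding sites of actin. The adult ventricle uses the cardiac isoforms Tnnt2, Tnni3 and Tnnc1 (shared with slow skeletal muscle) together with alpha-tropomyosin, Tpm1, whereas Tnni1 is the slow skeletal troponin I that the fetal heart also makes. Tnnt1 is the slow skeletal troponin T, Tpm2 encodes beta-tropomyosin, and Tpm3 and Tpm4 encode both muscle and non-muscle, or mainly non-muscle, tropomyosins.

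Promoter windows were read from RefSeq (GRCm38.p6) for all 9 genes, 12 windows in all, each covering 250 bases upstream of an annotated start. The first window is shown for the 3 genes in which M-CAT was found (Tnnt2, Tnnc1 and Tpm1) and for Tnni3 and Tpm2, in which it was not. Tnni3 had its lowest signal in wild-type sham as those 3 genes did, and Tpm2 did not. Whether the motif has a part in the order over the arrays was not tested. Capitals mark M-CAT, the letters CATTCC on either strand, a motif known from the cardiac troponin T promoter as a binding site of TEAD factors.
Tnnt2 (chr1:135836084-135836333, + strand): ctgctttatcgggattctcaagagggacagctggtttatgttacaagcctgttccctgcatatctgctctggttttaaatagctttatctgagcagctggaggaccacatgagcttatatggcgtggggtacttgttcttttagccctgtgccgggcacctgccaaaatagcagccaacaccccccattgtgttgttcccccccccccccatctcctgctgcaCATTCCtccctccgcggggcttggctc
Tnnc1 (chr14:31208062-31208311, + strand): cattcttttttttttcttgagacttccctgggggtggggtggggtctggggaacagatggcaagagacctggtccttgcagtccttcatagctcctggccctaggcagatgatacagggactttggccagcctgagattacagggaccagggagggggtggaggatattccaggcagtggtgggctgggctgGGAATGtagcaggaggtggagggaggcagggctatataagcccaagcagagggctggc
Tpm1 (chr9:67049214-67049463, - strand): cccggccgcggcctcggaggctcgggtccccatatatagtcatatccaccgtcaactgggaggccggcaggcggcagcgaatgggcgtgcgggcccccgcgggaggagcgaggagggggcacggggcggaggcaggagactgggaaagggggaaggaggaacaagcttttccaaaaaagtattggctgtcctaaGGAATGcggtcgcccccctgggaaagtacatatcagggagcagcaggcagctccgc
Tnni3 (chr7:4522529-4522778, - strand): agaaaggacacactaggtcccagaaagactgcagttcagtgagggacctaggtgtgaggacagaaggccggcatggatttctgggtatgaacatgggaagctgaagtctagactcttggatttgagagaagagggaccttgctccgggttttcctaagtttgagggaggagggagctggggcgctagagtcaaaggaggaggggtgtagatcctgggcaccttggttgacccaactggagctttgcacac
Tpm2 (chr4:43523555-43523804, - strand): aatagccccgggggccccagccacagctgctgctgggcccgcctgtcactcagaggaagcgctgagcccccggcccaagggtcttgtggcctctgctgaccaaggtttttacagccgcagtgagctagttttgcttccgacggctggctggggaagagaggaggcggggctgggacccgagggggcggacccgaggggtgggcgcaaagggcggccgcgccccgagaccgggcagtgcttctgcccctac
M-CAT was found in 3 of the 12 windows, those of Tnnt2, Tnnc1 and Tpm1 shown above, and in 12.6% of all 32851 windows of the same length. Its first base lay 27, 58 and 56 bases upstream of the start in the same order. The TATA letters TATAAA were found for Tnnt1 (12.4% of all windows), and the GATA letters AGATAA for Tnnt2 and Tpm3 (9.99%). The CArG box and the MEF2 motif were found in 0 of the 12 windows, against 1.47% and 0.508% of all windows. E-box letters CANNTG were found in 11 of the 12, against 66.2% of all. A match describes these letters only, and no binding was measured.

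The arrays themselves differed before any gene is considered. Il18, the deleted gene, read 9.1, 7.4, 8.2 and 8.4 intensity units in wild-type sham, wild-type banded, null sham and null banded, all below the floor of 64 units under which values were not compared, so it did not check the genotype labels. Signal was more concentrated at the 3′ end of control transcripts on some arrays: the mean 3′ minus middle difference (log2) over Gapdh, Actb and the added bacterial control dap was 4.14 ± 1.06 (SD, n = 3 transcripts) in wild-type sham, 0.55 ± 1.26 on the wild-type banded array, 2.86 ± 1.77 in null sham and 2.66 ± 1.65 in null banded. The mean 3′ minus 5′ difference was 4.38, 1.03, 4.49 and 4.46 in that order, lowest in wild-type banded. Both measures include control values below the floor, in wild-type sham for the middle and 5′ of Actb and for all of dap. On the null sham and null banded arrays the 5′ of dap was below it too (13.6 and 11.7). The size of both measures is therefore uncertain, and so is the order of wild-type sham and the null arrays by 3′ minus 5′. Gapdh, at or above the floor throughout, had a 3′ signal of 2044.5 and a middle signal of 83.6 in wild-type sham, against 15321.5 and 17062.5 on the wild-type banded array, 10743.7 and 1619.6 in null sham and 12239.1 and 3885.1 in null banded. Across probe sets wild-type sham correlated less with the others, with Pearson's r from 0.669 to 0.83 to the other arrays, which correlated at 0.862 to 0.931 among themselves. All 9 of 9 cardiomyocyte markers (Myh6, Myl2, Myl3, Actc1, Ryr2, Pln, Mb, Ttn and Mybpc3) were at or above the floor on every array, with a summed intensity of 153312.3 in wild-type sham and 185227.6 to 208892.0 on the others. Of 9 fast skeletal muscle markers, 0 reached the floor on any array. The atrial markers Myl7, Myl4, Sln and Nppa, the last of which the loaded ventricle is also known to make, were at or above the floor on some array for 4 of 4 genes and summed to 4273.3, 11136.4, 4080.8 and 15223.0 in that order.

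Of the 19 probe sets, 12 were at or above the floor on all 4 arrays, 1 on a single array and 6 on none, as the plot of levels shows. Tnni1 was among the 6: its only probe set (1450813_a_at) read 4.2 in wild-type sham, 3.8 on the wild-type banded array, 4.0 in null sham and 4.0 in null banded, so the fetal troponin I had no measurable level in either banded pool. The fast skeletal troponin genes Tnnc2, Tnni2 and Tnnt3 were below the floor on every array too. In RefSeq's gene order Tnni1 and Tnnt2 lie on chromosome 1 with only Lad1 between them among protein-coding genes, and Tnnt1 and Tnni3 are direct neighbours on chromosome 7.

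**Figure D1:**
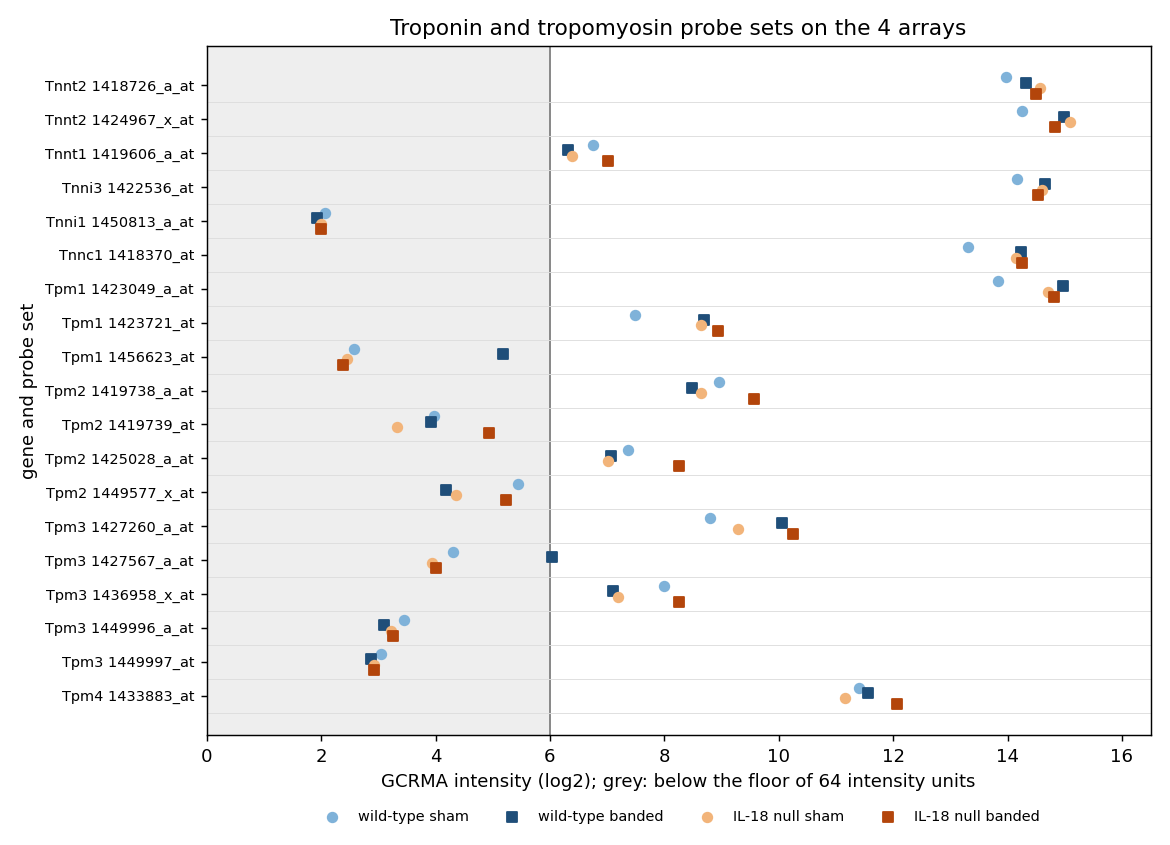
GCRMA intensity (log2, horizontal axis) of each of the 19 probe sets on the 4 arrays, 1 point per array, with the range below 64 intensity units in grey. Above the grey, the probe sets of Tnnt2, Tnni3, Tnnc1 and Tpm1 have their lowest point in wild-type sham, and those of Tpm2, Tpm3 and Tpm4 have their highest in null banded, except 1427567_a_at, which touches the floor in wild-type banded.

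The cardiac isoforms shared 1 pattern: lowest in wild-type sham and nearly level on the other arrays. Tnnc1, cardiac troponin C (1418370_at), read 10171.7 intensity units in wild-type sham, 19365.3 on the wild-type banded array, 18205.0 in null sham and 19497.6 in null banded. Tnni3, cardiac troponin I (1422536_at), read 18486.9, 25878.0, 25021.2 and 23900.5 in the same order. In both genes the sham wild-type value was the low one and the remaining values lay close together. These probe sets, both of Tnnt2 and the leading one of Tpm1 were among the brightest 0.564% on every array, and whether signals that bright are compressed was not tested. Cardiac troponin T, Tnnt2, had 2 probe sets. One (1424967_x_at) read 19642.8, 32550.1, 34863.9 and 29157.2, and the other (1418726_a_at) read 16148.9, 20486.1, 24234.0 and 22944.4. Both placed null sham highest and wild-type sham lowest, although an _x_at set can also bind related sequences.

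Tpm1, which supplies most striated alpha-tropomyosin, spanned more. Its leading probe set, the one with the highest mean (1423049_a_at), read 14639.1 in wild-type sham, 32202.6 on the wild-type banded array, 26638.2 in null sham and 28933.2 in null banded. A second (1423721_at) read 178.4, 414.0, 402.6 and 487.2. Both had wild-type sham lowest, with the remaining arrays within 0.28 (log2) of each other. The third (1456623_at) read 6.0, 36.2, 5.5 and 5.2, below the floor throughout, with its highest value on the wild-type banded array, where 3′ concentration was lowest (0.55, against 2.66 to 4.14 on the others). The part of that concentration in the result was not tested.

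All 6 cardiac probe sets at or above the floor were lowest in wild-type sham, and 33.1% of the 5378 probe sets at or above the floor on all arrays were. On that array the 3′ minus middle value was highest (4.14). Its 3′ minus 5′ value was 4.38, beside 4.49 in null sham and 4.46 in null banded, an order that includes dap values below the floor. The summed cardiomyocyte marker signal was lowest there, and the genes that moved the sum were not separated. Against wild-type sham, Mb, Ttn and Mybpc3 of 9 markers were 2-fold or more higher in wild-type banded (median of the 9 0.15). In null sham Mb and Mybpc3 were (median 0.00). The part of these in the low cardiac values was not tested. Over the 4 arrays the range of the 6 cardiac probe sets was 0.49 to 1.45 (log2), and without wild-type sham it was 0.10 to 0.28. Leaving out the array on which all 6 were lowest could only narrow their ranges. The median range of all 5378 probe sets was 0.88 with that array and 0.49 without it. A range of 2-fold or more over the 4 arrays was found for 6 of the 12 members (41.6% of all), 2 of them cardiac. Leaving wild-type sham out, 3 of the 12 reached it (15.8% of all), none of them cardiac.

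In wild-type banding (banded minus sham), Tpm1 was higher by 1.14 and 1.21 (log2; 2.2-fold and 2.32-fold) by its probe sets and Tnnc1 by 0.93. Tnnt2 was higher by 0.73 and 0.34 and Tnni3 by 0.49. Of the 13 member probe sets compared, 3 were at least 2-fold higher, where 24.9% of the 7200 compared were. None was at least 2-fold lower, where 11.5% of all were. The third of those higher was a Tpm3 probe set (1427260_a_at, 1.26). Read against the background, 3 of 13 is near the share of all probe sets. Members had a median of 0.34 and all compared probe sets one of -0.02. Quantile normalization moved the median of all to -0.34 and took all 3 of these members under 2-fold (0.98 and 0.78 for Tpm1, 0.97 for Tpm3).

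With banding in IL-18 null hearts, the cardiac isoforms were level. The differences were 0.10 for Tnnc1, -0.07 for Tnni3, -0.26 and -0.08 for Tnnt2 and 0.12 and 0.28 for Tpm1. That set had a median of 0.02, against 0.06 for all 6743 probe sets compared. None reached 2-fold either way. Between the banded arrays (IL-18 null minus wild type) the same 6 lay between -0.16 and 0.23. Between the sham arrays they lay between 0.44 and 1.17, all above 0, where 46.3% of all compared were above 0. Of these 6, 1 was at least 2-fold higher in null sham, the second Tpm1 probe set (1.17), and it was also the only one among all 12 members compared (18.4% of all). 0 were lower (6.02% of all). Wild-type banding and the sham comparison both subtract the wild-type sham array.

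**Figure D2:**
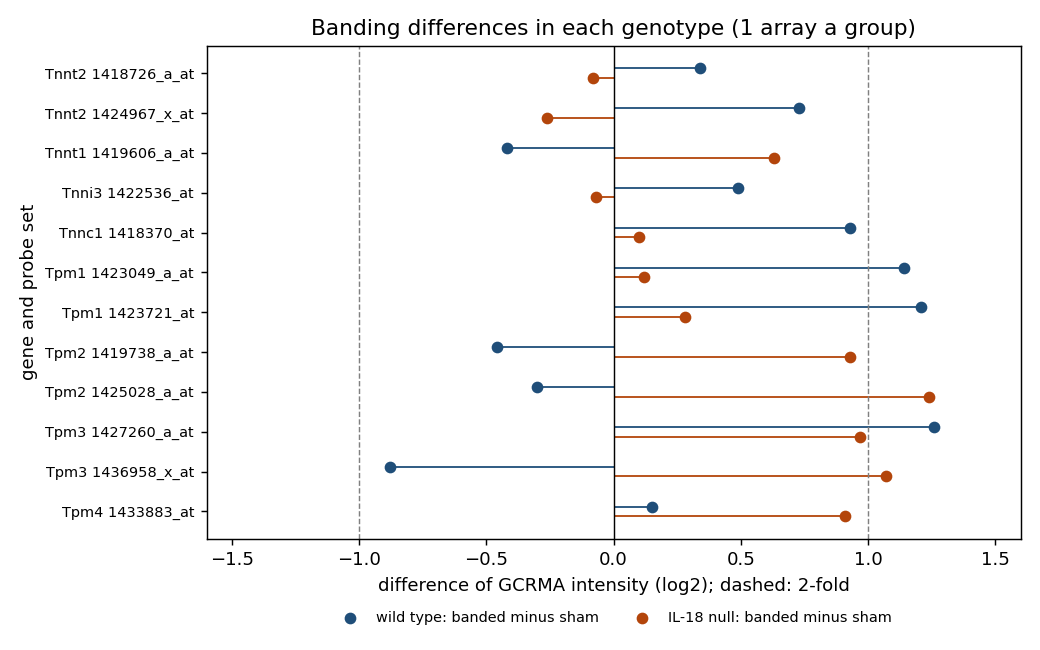
Difference of GCRMA intensity (log2, horizontal axis) between banded and sham arrays for the 12 probe sets at or above the floor on all arrays, with 1 point per genotype and dashed lines at 2-fold. Cardiac isoforms are to the right of 0 in wild type and between -0.26 and 0.28 in IL-18 null, while Tnnt1, both Tpm2 probe sets and 1 Tpm3 probe set are to the left in wild type and to the right in IL-18 null.

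The other tropomyosins had a different order, with their highest signal in the null banded pool. Beta-tropomyosin, Tpm2, read 497.4 in wild-type sham, 360.6 on the wild-type banded array, 398.4 in null sham and 756.6 in null banded by its leading probe set (1419738_a_at). By another (1425028_a_at) it read 164.8, 133.9, 129.9 and 305.9. Both put null banded at the top, with the other arrays within 0.46 (log2) of each other. The differences with IL-18 null banding were 0.93 and 1.24, and with wild-type banding -0.46 and -0.30. Between the banded arrays Tpm2 was higher in IL-18 null by 1.07 and 1.19, which 4.23% and 3.11% of all probe sets equalled or passed. Its last 2 probe sets were below the floor on every array, at 30.8 or less (1419739_at) and 43.4 or less (1449577_x_at).

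Tpm4, a mainly cytoskeletal tropomyosin with 1 probe set (1433883_at), read 2720.1 in wild-type sham, 3022.7 on the wild-type banded array, 2282.0 in null sham and 4281.7 in null banded. It was highest in null banded as well, and the wild-type arrays differed by only 0.15. The difference with IL-18 null banding was 0.91, which 7.87% of all probe sets equalled or passed, and between the banded arrays it was 0.50.

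Tpm3, which makes slow-muscle and non-muscle tropomyosins from 1 gene, was not described the same way by its 5 probe sets. The leading one (1427260_a_at) read 442.9 in wild-type sham, 1062.1 on the wild-type banded array, 622.5 in null sham and 1220.5 in null banded, so both banded arrays were the high ones. Another (1436958_x_at) read 255.0, 138.3, 145.8 and 307.0, so wild-type sham and null banded were high. They agreed on IL-18 null banding, at 0.97 and 1.07, and disagreed in sign on wild-type banding, at 1.26 and -0.88, and on the sham comparison, at 0.49 and -0.81. The root-mean-square distance between their centred values was 0.764 (log2), against 0.127 between the Tpm2 pair, 0.152 between the Tnnt2 pair and 0.185 between the upper Tpm1 pair. One further probe set (1427567_a_at) read 19.9, 65.7, 15.4 and 16.1, passing the floor only on the wild-type banded array, as the dim Tpm1 probe set was highest there. The remaining ones lay between 7.3 and 10.9. Which transcripts of Tpm3 each probe set reads is not in the sources used here, and the mean of the gene would hide the disagreement.

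**Figure D3:**
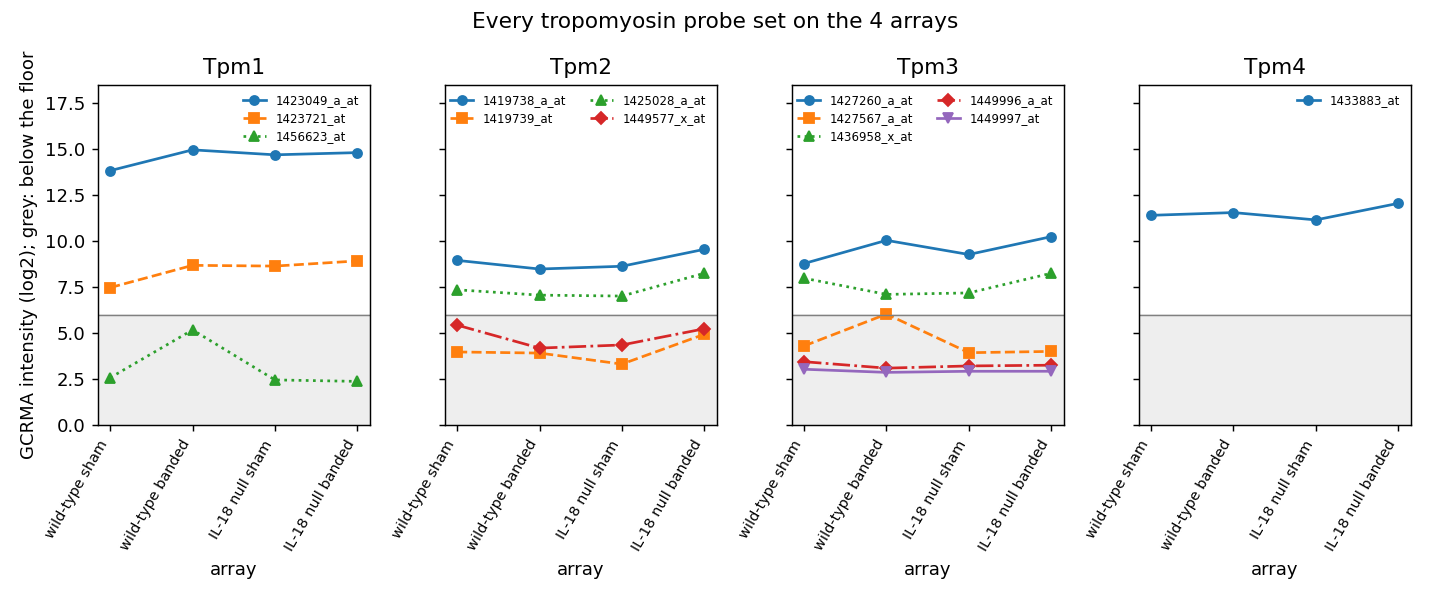
GCRMA intensity (log2, vertical axis) of every tropomyosin probe set on the 4 arrays, 1 panel per gene, with the range below the floor in grey and lines joining the values of a probe set. Both upper Tpm2 lines run alike, while from wild-type sham to wild-type banded 1 upper Tpm3 line goes from 8.79 up to 10.05 and the other from 7.99 down to 7.11.

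Tnnt1, slow skeletal troponin T (1419606_a_at), stayed close to the floor at 107.4 in wild-type sham, 80.0 on the wild-type banded array, 83.1 in null sham and 128.7 in null banded. It was highest in null banded and lowest in wild-type banded, with differences of 0.63 for IL-18 null banding and -0.42 for wild-type banding. Its whole range was 0.69.

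IL-18 null banding gave 2 of 12 member probe sets at least 2-fold higher (6.64% of all 6743 compared), the second Tpm2 and the second Tpm3 probe set, and 0 lower (4.2% of all). The 5 probe sets of Tpm2, Tpm3 and Tpm4 lay between 0.91 and 1.24, all near the 2-fold line, with a median of 0.97 against 0.06 for all. Between the banded arrays 3 of 13 members were 2-fold or more higher in IL-18 null (5.11% of all 7039 compared) and 0 lower (10.9%). These 3 were both Tpm2 probe sets and the second Tpm3 one (1.15), and cyclic loess normalization left 1 of them. Of the 12 members at or above the floor on all arrays, 8 were highest in null banded, where 25% of all such probe sets were. Among these 8, Tnnc1 was above wild-type banded by only 0.01, the leading Tpm3 probe set by 0.20 and the second Tpm1 one by 0.23. Tpm2 and Tpm3 entered the 8 with more than 1 probe set each. The other 4 were highest in wild-type banded (2, against 21.9% of all) or null sham (2, against 13.4%), and 0 were highest in wild-type sham, where 39.7% of all were. The lowest value was in wild-type sham for 7, wild-type banded for 3 (36.9% of all), null sham for 2 (17.9%) and null banded for 0 (12%). Neither the comparison within null hearts nor that between banded arrays uses the wild-type sham array.

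**Figure D4:**
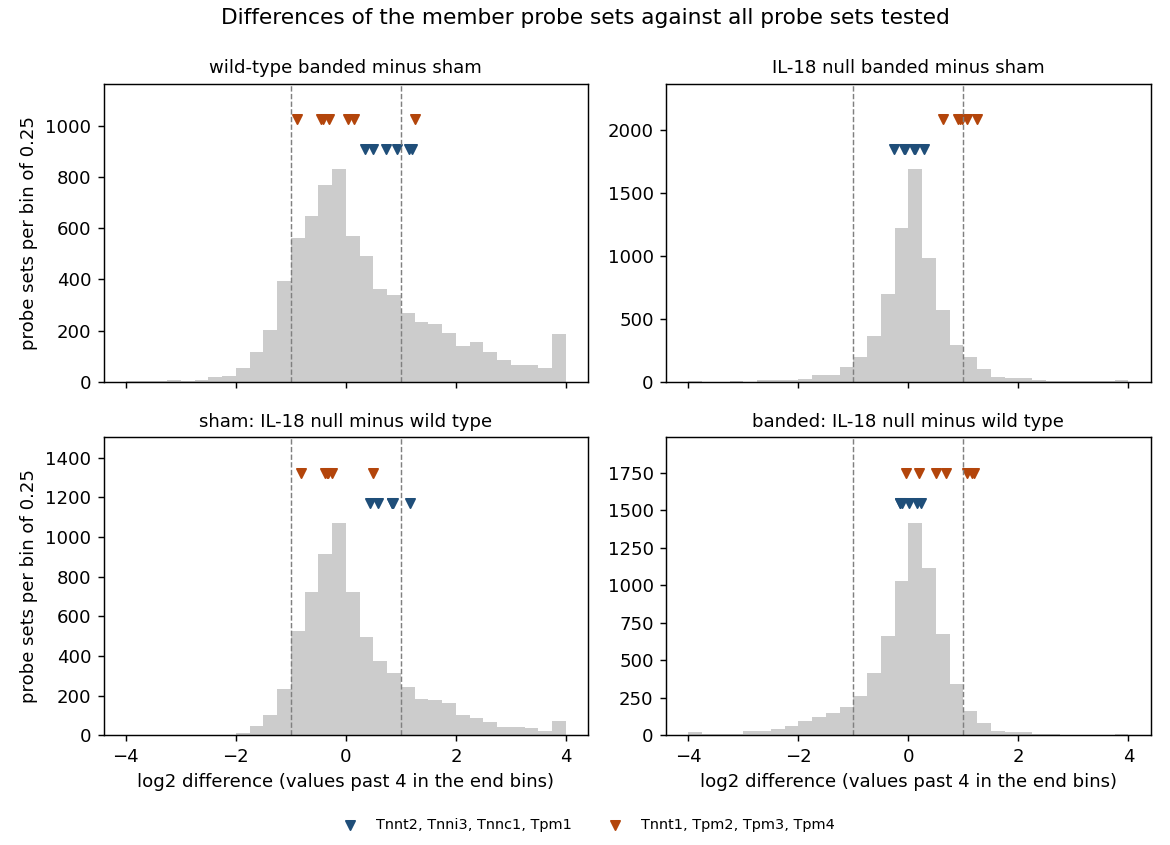
Number of probe sets (vertical axis, bins of 0.25) by log2 difference (horizontal axis) in the 4 comparisons of 2 arrays, with triangles at the member probe sets in blue for Tnnt2, Tnni3, Tnnc1 and Tpm1 and in orange for Tnnt1, Tpm2, Tpm3 and Tpm4 (triangle height has no meaning, and dashed lines mark 2-fold). The blue triangles sit right of the peak in the comparisons that subtract wild-type sham and on it in the others, while the orange ones lie at 0.63 to 1.24 in IL-18 null banding.

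Tpm2, Tpm3 and Tpm4 are also made by cells other than cardiomyocytes, and in tissue RNA more cells of a type and more RNA per cell cannot be told apart. Fibroblast markers were at the floor or above for 6 of 6 genes (Col1a1, Col1a2, Col3a1, Pdgfra, Dcn and Lum), with summed intensities of 6997.4 in wild-type sham, 20755.6 on the wild-type banded array, 11162.3 in null sham and 26387.0 in null banded. At least 2-fold higher were 4 of the 6 with wild-type banding (median 1.05) and 4 with IL-18 null banding (median 1.35). Of all probe sets compared, 24.9% and 6.64% rose as much. From wild-type banded to null banded, Col1a1 and Col3a1 rose past 2-fold (5.11% of all did) and 0 of the 6 fell past it. The fibroblast median of that comparison was 0.50, against 0.06 for all. The wild-type banding differences of the tropomyosins were -0.46 and -0.30 for Tpm2, 1.26 and -0.88 for Tpm3 and 0.15 for Tpm4. From wild-type banded to null banded the same probe sets differed by 1.07 and 1.19, 0.20 and 1.15, and 0.50. Of the smooth muscle markers, 3 of 7 reached the floor on some array, and Myh11, Cnn1, Smtn and Lmod1 were below it on all. Over all 7 the summed intensity was 2877.8, 2772.1, 1688.8 and 2188.8 in the same order, most of it Acta2 (2772.5, 2205.3, 1539.4 and 1940.3). Tagln and Myocd were at least 2-fold higher with wild-type banding, and Tagln with IL-18 null banding. Macrophage markers reached the floor on some array for 4 of 4 genes, and on all arrays for 2. They summed to 1633.1, 1459.1, 1026.9 and 2041.2, highest in null banded, but differed among themselves. Csf1r was at least 2-fold higher with IL-18 null banding, and C1qa at least 2-fold lower in null banded than in wild-type banded. The endothelial markers Pecam1, Cdh5, Kdr and Tie1 summed to 918.2, 1449.0, 1304.9 and 973.4, highest in wild-type banded. Pecam1 was at least 2-fold lower in null banded than there. The part of these cells in the tropomyosin values was not tested.

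The banding responses of the genotypes were set against each other as the difference of differences (IL-18 null minus wild type). Of 13 member probe sets, 4 were at least 2-fold higher by this measure (18.8% of all 7366 compared) and 1 lower (24.9%). The higher ones were Tnnt1 (1.06), both Tpm2 probe sets (1.39 and 1.54) and the second Tpm3 one (1.96). Tpm1 was the lower one (-1.02, leading probe set), and all 6 cardiac probe sets were below 0, from -0.42 to -1.02. Of all compared, 52.9% were above 0, and 24.5% to 35.2% were as far below 0 as each of the 6. This measure contains the wild-type sham array, on which the cardiac values were low.

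A fit of surgery and genotype as separate terms, with the difference of responses taken as its error, left 1 residual degree of freedom. In it limma gave an adjusted p of 1.0 to each of the 13 member probe sets for either term. For surgery, Tpm3 (1427260_a_at) had the largest term, 1.12 ± 0.60 (SE), and Tpm1 (1423049_a_at) had 0.63 ± 0.27 with an unadjusted limma p of 0.0683. Tnnc1 had 0.51 ± 0.26, Tpm4 0.53 ± 0.45 and the leading Tpm2 probe set 0.23 ± 0.69. For genotype the cardiac terms ran from 0.16 ± 0.19 for Tnni3 to 0.70 ± 0.64 for the second Tpm1 probe set. No member had an unadjusted p under 0.05 for either term, and of all 7366 probe sets 106 had one for surgery, 14 for genotype and 0 (0%) an adjusted p under 0.05.

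Partners of troponin and tropomyosin on the thin filament were taken from a list of 31 genes, of which 25 had a probe set of their own and 20 reached the floor. With wild-type banding 9 of 20 were at least 2-fold higher and 1 lower (24.9% and 11.5% of all), with a median of 0.64 against -0.02 for all. With IL-18 null banding 1 of 19 was higher, Acta1, and 1 lower, Tmod3 (6.64% and 4.2% of all; medians 0.08 and 0.06). In sham hearts 7 of 19 were higher in IL-18 null and 1 lower (18.4% and 6.02% of all). In banded hearts 0 of 20 were higher and 4 lower (5.11% and 10.9% of all).

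Acta1, skeletal alpha-actin, read 142.5 in wild-type sham, 10768.9 on the wild-type banded array, 2950.1 in null sham and 10429.7 in null banded. Mybpc3, the cardiac myosin-binding protein C that reaches from the thick to the thin filament, read 948.5, 16556.4, 10370.9 and 11767.0. Both were far lower in wild-type sham than elsewhere, by more than any troponin or tropomyosin. On that array the 3′ minus middle value of the control transcripts was highest (4.14). Whether this had a part in the partners' values was not tested. The actin monomer-binding Pfn1 read 89.3, 1430.7, 941.7 and 677.8, and the actin-binding Xirp1 read 50.1 (below the floor), 566.3, 244.0 and 442.0. Pfn2 was highest in wild-type sham instead, at 2606.9, 1085.7, 1064.0 and 1620.5. Nrap, an anchoring protein of forming myofibrils, was high in wild-type banded alone, at 234.4, 1368.4, 320.8 and 339.3. Tmod3, a tropomodulin that caps the pointed end together with tropomyosin, read 33.9 (below the floor), 372.7, 181.1 and 78.5, with wild-type banded highest. Actc1, cardiac alpha-actin, read 14413.5, 22421.3, 20549.6 and 19163.2 and was lowest in wild-type sham as the cardiac troponins were, with a difference of 0.64 in wild-type banding and -0.10 in IL-18 null banding. Other partners that stayed under 2-fold differed in order. Cap2 was lowest in wild-type sham as well (642.9), whereas Lmod2 (7008.5) and Fhod3 (2185.6) were highest there.

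For the members whose leading probe set spanned 2-fold, the probe sets of other genes with the most similar values over the 4 arrays were sought among 5376. Nearest to Tpm1 were Elp5, Pgp and Tom1, at root-mean-square distances of 0.016, 0.027 and 0.028 (log2) after centring, where 67 probe sets lay within 0.1. Nearest to Tpm2 were Uap1 (0.031), Serp1 (0.055) and Cstf3 (0.057), with 14 within 0.1. Uap1 read 460.8, 322.4, 349.6 and 694.6. Nearest to Tpm3 were Gfer (0.047), Mindy1 (0.078) and Sema7a (0.085), with 5 within 0.1. With 4 arrays, a close match is a description of these arrays only.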

How the data were processed

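Pooled heart RNA (left ventricle per the labels of the IL-18 null pools) was labelled with biotin and hybridised to 1 array per group. The authors deposited GCRMA intensity values per probe set, per the submitters' processing notes. Their linear scale was read from the values (1.5 to 43811.1), and the sources used here do not give GCRMA's version and settings. Of 22690 probe sets, 64 controls, 691 with several genes in the platform annotation and 1555 with none were left out, leaving 20380.

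Values were taken to log2, and those below log2 6 (64 units) were set to that floor before differences were taken. A probe set entered a comparison if any array compared reached the floor. Differences were counted at 2-fold, with no test. The additive fit used limma 3.58.1 (R 4.3.3; lmFit, eBayes with intensity trend, Benjamini-Hochberg adjustment) on unfloored log2 values. Pipelines were tested on simulated data. The number of arrays limits the precision.

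Every probe set of the 9 genes was named. Thin filament partners were named if 2-fold different in at least 2 comparisons, at most 6, with those differing in most comparisons first. Actc1, Cap2, Lmod2, Fhod3 and Pfn2 were added after their values were seen. For genes of similar pattern, the 3 nearest were named. Members and lists were chosen with earlier results of these data known. Alternatives were floors at log2 5 and 7 and none, quantile normalization, cyclic loess, other choices of probe set, a 1.5-fold threshold and, for the fit, no trend, no filter and an adjusted p of 0.1.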

Additional observations from a re-analysis of the deposited data

Results flagged for a closer look

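4 member probe sets were lower with banding in wild type and higher in IL-18 null hearts, and differed by at least 2-fold between those responses. Of all 7366 probe sets compared, 18.8% were at least 2-fold higher in the difference of responses, whatever the sign within each genotype. That difference contains the wild-type sham array. The differences of responses (IL-18 null minus wild type, log2) were 1.06 for Tnnt1 (1419606_a_at), 1.39 and 1.54 for Tpm2 (1419738_a_at and 1425028_a_at) and 1.96 for Tpm3 (1436958_x_at). With 1 array a group these differences were not tested. For Tnnt1, whose values lay near the floor, the difference was 0.01 with the floor at log2 7 and 0.78 after cyclic loess. For Tpm3 the leading probe set gave -0.29.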

How the results depend on the processing

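No paired analysis was possible because each group had 1 array. Of the recomputed counts over members, 71 stayed within 1.5 times and 31 did not. The 71 include counts of 0 that stayed at 0, among them all those of the additive fit, so they overstate how stable the counts were. No difference past 2-fold changed sign under the floors, quantile normalization or cyclic loess. The counts below at other settings are given without the share of all probe sets at that setting. A looser threshold raises that share too. In wild-type banding 3 probe sets were higher and 0 lower. The higher count was 0 after quantile normalization and when a gene's probe sets were averaged, in which probe sets at the floor dilute a difference, and 5 at 1.5-fold. The lower count was 2 after quantile normalization and 1 at 1.5-fold. In IL-18 null banding the 2 higher became 1 after cyclic loess, 1 without probe sets marked _s_at or _x_at, 0 with 1 probe set per gene or their mean, and 6 at 1.5-fold. Between sham arrays the 1 higher became 0 after quantile normalization, with 1 probe set per gene or their mean, and 5 at 1.5-fold, and the 0 lower became 1 after quantile normalization and at 1.5-fold. Between banded arrays the 3 higher became 1 after cyclic loess, 1 with 1 probe set per gene and 0 with their mean, and the 0 lower became 1 with the floor at log2 5 or none (1427567_a_at). For the difference of responses the 4 higher became 2 with 1 probe set per gene and 1 with their mean, and the 1 lower became 2 with the floor at log2 5 or none, 0 after quantile normalization or with the mean, and 4 after cyclic loess or at 1.5-fold. Leaving out wild-type sham, chosen after seeing the data, took members spanning 2-fold from 6 to 3, and cardiac ones from 2 to 0. The additive fit called 0 members under each alternative. Over all probe sets past 2-fold, the share higher was 68.4% in wild-type banding (46.2% after quantile normalization, 78.9% after cyclic loess), 61.3% in IL-18 null banding (50.9% and 52.0%), 75.3% between sham arrays (55.6% and 82.9%), 31.9% between banded arrays (37.3% and 20.9%) and 43.1% for the difference of responses (55.4% and 30.5%). Values near the floor, as for Tnnt1, and the 6 probe sets below it limit what can be read. The causes of these shifts were not tested.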
